A study of Mus musculus with 15 samples.

Results

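The genes described here encode nuclear subunits of respiratory chain complexes I, IV and V, measured by RNA-seq in mouse bone marrow-derived macrophages (BMDMs). Members were all genes whose symbols start with Ndufa, Ndufb, Ndufc, Ndufs or Ndufv and a number, with Cox4 to Cox8 followed by a, b, c or a number, or with Atp5, and whose mean over the 15 samples was at least 1 FPKM (fragments scaled by transcript length and by the number of fragments mapped). Of 20089 genes with complete values, 70 carried such a symbol and 67 passed the limit, namely 37 of complex I, 13 of complex IV and 17 with Atp5 symbols. BMDMs of wild-type C57BL/6 mice were cultured with macrophage colony-stimulating factor (M-CSF), which all groups received. Each of the 5 groups held 3 samples: M-CSF alone (control), RANKL for 4 h or 72 h (labelled 3 days), and lipopolysaccharide (LPS) for 4 h or 72 h. RANKL is the cytokine that drives macrophage precursors to become osteoclasts, and LPS is the bacterial product that activates macrophages through a Toll-like receptor. An M-CSF culture of 72 h was not analysed here, so time in culture and stimulus cannot be told apart in the 72 h comparisons with control. The labels do not say whether the 3 samples of a group came from separate animals, so the p-values measure only the spread between these samples.

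Complex I takes electrons from NADH to ubiquinone, complex IV takes them from cytochrome c to oxygen, and complex V, the ATP synthase, uses the resulting proton gradient to make ATP. Complex I has a hydrophilic arm with the flavin and the iron-sulfur clusters, and a membrane arm that pumps protons. The ATP synthase has a catalytic F1 head, a ring of c subunits that turns in the membrane, and a stalk that holds the head still. Mature osteoclasts are rich in mitochondria, whereas LPS-activated macrophages of the mouse are known to turn to glycolysis. Several subunits exist as paralogs that are used in different tissues, such as the muscle forms Cox6a2, Cox7a1 and Cox8b and the testis forms Cox6b2, Cox7b2 and Cox8c. The subunits encoded by mitochondrial DNA and the small subunits of complex III were not analysed here.

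The 250 bases before the start sites of 2 members are printed below because these genes had the largest differences of complex V and of the complex I core between RANKL 72 h and LPS 72 h. Both come from RefSeq (GRCm38.p6), read 5′ to 3′ on the minus strand, at chr2:73911327-73911576 and chr19:3912775-3913024. Capitals mark AAGGTCA, the core of the site bound by estrogen-related receptors (ERR), here in its reverse form TGACCTT, and the Ndufs8 stretch held none of the 4 strings described after it.
Atp5g3: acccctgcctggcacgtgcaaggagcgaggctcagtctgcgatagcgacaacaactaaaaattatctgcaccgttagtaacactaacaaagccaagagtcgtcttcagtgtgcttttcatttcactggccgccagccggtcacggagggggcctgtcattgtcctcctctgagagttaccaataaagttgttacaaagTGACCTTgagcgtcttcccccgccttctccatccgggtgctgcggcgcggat
Ndufs8: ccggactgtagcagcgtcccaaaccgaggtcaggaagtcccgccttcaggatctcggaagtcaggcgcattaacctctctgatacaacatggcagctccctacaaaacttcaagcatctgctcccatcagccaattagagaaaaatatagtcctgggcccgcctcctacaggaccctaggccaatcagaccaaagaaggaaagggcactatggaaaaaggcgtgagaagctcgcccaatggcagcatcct
The same promoter table held windows from 250 bases before to 50 after the start for 56 of the 67 members, 61 windows in all. Each window was searched on both strands for 4 letter strings named after factors known to bind at genes of oxidative phosphorylation, none of which contains another. The core of the NRF1 site was in 15 of the 61 windows (24.6%) and in 4.60% of all 32851 windows. The ETS string CCGGAAG was in 12 (19.7%, against 8.86% of all windows), the YY1 string AAGATGG in 10 (16.4%, against 6.34%) and the ERR string AAGGTCA in 7 (11.5%, against 4.72%). By complex, NRF1 was in 8 of 34 windows of complex I, 1 of 11 of complex IV and 6 of 16 of complex V. These matches describe letters only and were tested against no measurement.

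The libraries were similar in depth, with 18306184 to 20330207 fragments per sample recovered from the steps of the FPKM values. For the 61 members with a mean of at least 10 FPKM, a value rested on 217 to 27256 fragments, whereas the 6 members below that mean rested on 1 to 614. These counts cover counting error only. The summed FPKM of 10 osteoclast markers was 155 to 280 in control and 1721 to 5474 in RANKL 72 h, and that of 9 LPS response genes was 179 to 976 in control, 13714 to 15551 in LPS 4 h and 2130 to 4490 in LPS 72 h. Of the osteoclast markers Calcr was at 0 in control, and the 8 macrophage markers were above 0 in all groups. Markers of other cells moved as well. The sum of 10 stromal markers was 151 to 328 in control and 409 to 1924 in RANKL 72 h, and that of 6 granulocyte precursor markers fell from 2301 to 5797 in control to 336 to 1628 in RANKL 72 h and 7.17 to 185 in LPS 72 h. The sum of 4 B cell markers did not exceed 20.6 in any sample. LPS 72 h replicate 3 stood apart from its group, with a macrophage marker sum of 17491 against 6086 and 7876. These are bulk samples, in which a change in the mix of cells and a change in RNA per cell cannot be told apart.

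Complex V and complex IV genes were the more highly expressed. Among members with a mean of at least 10 FPKM, the median level was 56.8 FPKM for 36 genes of complex I, 178 FPKM for 10 of complex IV and 149 FPKM for 15 of complex V. The leading members were Atp5b, the catalytic β subunit (399 FPKM over all samples), Atp5l and Atp5a1 in complex V. Cox6b1 (308 FPKM), Cox6a1 and Cox8a led complex IV, and Ndufa4 (159 FPKM), Ndufa3 and Ndufa2 led the Nduf symbols. Ndufa4 carries a complex I symbol, though its protein is now placed in complex IV. Of the symbols under the limit, Cox7b2 and Cox8c were listed at 0 in every sample and Cox8b, above 0 in 1 sample only, had a mean of 0.0171 FPKM. Just above it lay Cox6b2 at 1.24 FPKM, Atp5s at 1.49 FPKM and Ndufa4l2 at 1.84 FPKM, and Ndufa4l2 passed only through RANKL 72 h.

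The summed FPKM of each complex gives the broad picture, as a description with no test. For complex V, the control samples stood at 2406, 2551 and 2374 FPKM, RANKL 72 h at 2982, 3063 and 4026 FPKM, and LPS 72 h at 1927, 1975 and 2212 FPKM. All RANKL 72 h samples were above and all LPS 72 h samples below control, with means 1.37 and 0.834 times that of control. The sums of complexes I and IV were also above control in every RANKL 72 h sample, with means 1.19 and 1.25 times control. The sum of complex I in LPS 72 h was 2472, 2381 and 2506 FPKM, around the 2447, 2433 and 2287 FPKM of control. In LPS 4 h the means were 0.727, 0.832 and 0.790 times control for complexes I, IV and V. Together the members took 1.46% to 1.59% of the summed FPKM of a control sample, 1.89% to 2.48% in RANKL 72 h and 1.07% to 1.22% in LPS 4 h.

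**Figure D1:**
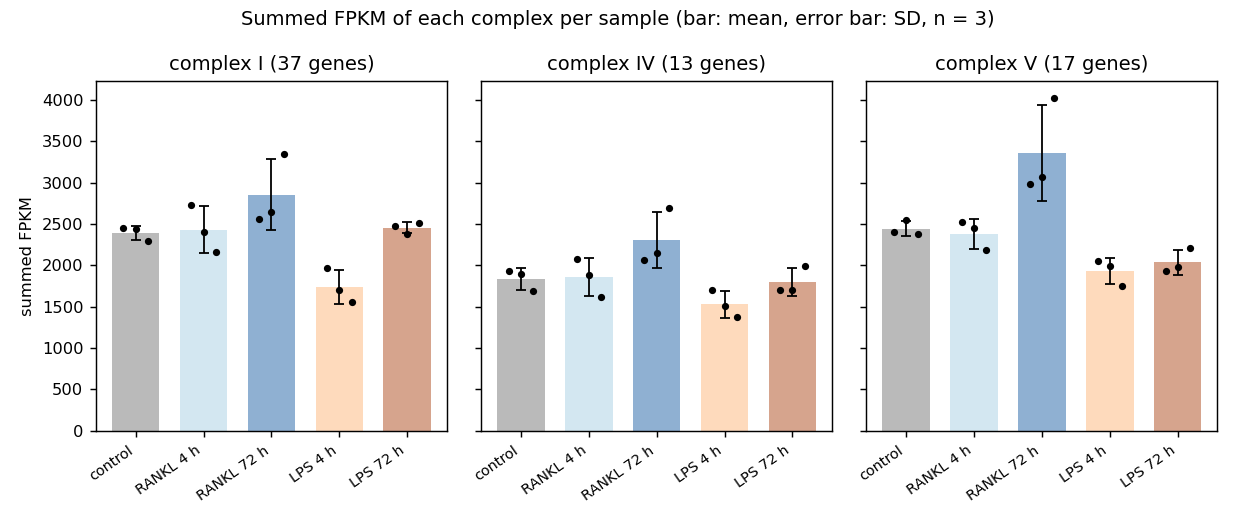
Summed FPKM (vertical axis) of the genes of complexes I, IV and V in the 5 groups, with points for the 3 samples, bars for means and error bars for SD. Complex V stood above control in RANKL 72 h (mean 3357 against 2443) and below it in LPS 72 h (2038), whereas complex I in LPS 72 h (2453) lay near control (2389). In RANKL 72 h complex I (2853) and complex IV (2299 against 1837) also stood above control.

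Fold changes were tested with limma on log2(FPKM + 0.1), and a gene was called where its fold change exceeded 1.5 or fell short of 0.66 with p under 0.05 before adjustment. Adjusted p-values are by the Benjamini-Hochberg method over the 11743 genes tested, and fold changes are on the log2(FPKM + 0.1) scale. Of all tested genes, 1.21% were called higher and 1.35% lower in RANKL 4 h against control. None of the 67 members was called in either direction by limma or by limma voom, and none had an unadjusted p under 0.05 in the main fit. That fit does not pair samples, though same-numbered samples deviated together here (lowest correlation 0.707). With a replicate block 0 members were called in either direction, beside 1.41% of all genes higher and 1.65% lower. The members lay between -0.13 (Cox7b) and 0.39 (Cox7a1) on the log2 scale, with a median of 0.01 beside 0.00 for all genes. Of the 17 Atp5 symbols 12 lay below 0, with a median of -0.02.

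In RANKL 72 h against control, members called higher included Cox7a2l and Cox7a1 among the Cox symbols, Ndufv3 and Ndufs1 of complex I, and Atp5a1, Atp5g2 and Atp5g3 of the ATP synthase. With samples centred on their median gene, Atp5a1 (0.49), Atp5g2 (0.45) and Atp5g3 (0.43) were no longer called. In all, 12 members (17.9%) were called higher and 2 lower, beside 20.2% of all genes called higher and 9.04% lower, so the share called higher was near the background. The 12 include Ndufa4l2, which met the level limit only through RANKL 72 h, and among the 61 members with a mean of at least 10 FPKM 10 were called higher and 0 lower. Most differences were small, and 59 of 67 members lay above 0, with a median log2 fold change of 0.32 beside 0.16 for all genes. By adjusted p under 0.05 with no fold limit, 26 members were higher and 2 lower, where 20.8% of all genes were higher. The medians were 0.26 for complex I, 0.32 for complex IV and 0.42 for complex V. All 17 Atp5 symbols lay above 0, from 0.13 (Atp5e) to 0.71 (Atp5a1), and 9 of them passed the adjusted limit. With samples centred on their median gene, the median of all genes moved from 0.16 to -0.06 and that of the members to 0.10. Then 5 members were called higher and 2 lower, beside 12.7% and 14.2% of all genes, and 15 of 17 Atp5 symbols were still above 0. RANKL 72 h replicate 3 was the highest of its group for 64 of the 67 members, a count not made over all genes. Replicate 1 was the highest for 34 members in control, 55 in RANKL 4 h and 50 in LPS 4 h, and replicate 3 for 40 in LPS 72 h. Without RANKL 72 h replicate 3, 6 members were called higher and 1 lower, beside 20.1% and 7.46% of all genes, with a member median of 0.22. The osteoclast marker sum of that replicate was also the highest of the group (5474 against 3168 and 1721), and the part of that in the result was not tested.

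In the F1 head, Atp5a1, the α subunit, had 208, 254 and 241 FPKM in control and 330, 348 and 483 FPKM in RANKL 72 h. The groups did not overlap, and the log2 fold change was 0.71 ± 0.15 (SE, adjusted p = 0.00367 by limma). Atp5b stood at 349, 415 and 384 FPKM in control and 476, 493 and 718 FPKM in RANKL 72 h. It passed the adjusted limit but not the fold limit, with a log2 fold change of 0.53 ± 0.15 (adjusted p = 0.0158). Atp5d, the δ subunit, was called too, at 0.62, and the call was lost without control replicate 3 (0.56) and under centring (0.40). Atp5d here, and Cox5b and Ndufs6 in the LPS comparisons, were named after their values were seen. For the c ring, Atp5g3 had 191, 206 and 207 FPKM in control and 287, 276 and 398 FPKM in RANKL 72 h, and its log2 fold change was 0.65 ± 0.17 (adjusted p = 0.0118). Atp5g2 rose from 130 ± 8.91 to 206 ± 14.8 FPKM (SD, n = 3), and Atp5g1 had a log2 fold change of 0.45 that missed the fold limit (adjusted p = 0.0364). Without RANKL 72 h replicate 3, the log2 fold changes of Atp5a1 (0.54), Atp5d (0.46) and Atp5g3 (0.49) fell under the fold limit. The 7 stalk and membrane genes showed smaller differences, 0.15 to 0.48, and none was called. Atpif1, the inhibitor of the synthase and outside the symbol rule, had 61.6, 72.7 and 69.4 FPKM in control and 88.4, 113 and 109 FPKM in RANKL 72 h, that is, a log2 difference of 0.60 ± 0.16 (adjusted p = 0.0125). Its call was lost without control replicate 1 (0.53), without RANKL 72 h replicate 2 (0.53) or 3 (0.56), and under centring (0.38).

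The arms of complex I were read apart, and the difference between them was not tested. The 16 hydrophilic arm genes had a median log2 fold change of 0.21, with 4 called higher and 5 higher by adjusted p under 0.05 alone. The 19 membrane arm genes had a median of 0.29, with 1 called higher and 7 higher by adjusted p. Of all genes 20.2% were called higher and 20.8% were higher by adjusted p. Ndufv3, an accessory subunit of the NADH-oxidizing part of complex I, had 27.6, 25.1 and 25.0 FPKM in control and 51.4, 47.6 and 56.7 FPKM in RANKL 72 h. Its log2 fold change of 0.998 ± 0.15 (adjusted p = 0.000415) was the largest of complex I apart from Ndufa4l2. Among the core subunits of the hydrophilic arm, Ndufs1 and Ndufv1 were called higher. Ndufs1, which holds clusters near the point of electron entry, had 19.3, 24.5 and 25.4 FPKM in control and 37.1, 34.9 and 52.3 FPKM in RANKL 72 h, that is, a log2 difference of 0.83 ± 0.16 (adjusted p = 0.0018). Ndufv1, the flavin subunit, rose by 0.68 ± 0.13 (adjusted p = 0.00172), and its call was lost without RANKL 72 h replicate 3 (0.53) and under centring (0.46). By contrast Ndufs3, Ndufs7, Ndufs8 and Ndufv2 had log2 fold changes of 0.22, 0.13, 0.20 and 0.22, with values that overlapped those of control. Ndufs1 overlaps the coding gene Eef1b2 in GENCODE, and the use of strand in counting is not given in the sources used here. In all, 22 of the 67 members overlap another coding gene there, among them Atp5a1 (Haus1) and Atp5d (Cbarp).

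Among the 13 Cox symbols, Cox7a2l and Cox7a1 were called higher and Cox6a2 and Cox6b2 lower in RANKL 72 h. Cox7a2l counts with complex IV by symbol only, as a factor of supercomplexes, in which respiratory chain complexes are joined. Of the 12 subunits 1 was called higher and 2 lower, beside 20.2% and 9.04% of all genes. Cox7a2l had 69.2, 76.7 and 77.3 FPKM in control and 156, 128 and 184 FPKM in RANKL 72 h. Its log2 fold change was 1.05 ± 0.13 (adjusted p = 7.07e-05), and it was 0.96 above LPS 72 h. The muscle form Cox7a1 rose from 1.53, 1.67 and 1.502 FPKM to 9.08, 5.46 and 9.47 FPKM, a log2 fold change of 2.24 ± 0.27 (adjusted p = 7.87e-05). Cox6a2, also of muscle, had 4.73, 5.98 and 4.10 FPKM in control and 1.55, 1.48 and 1.73 FPKM in RANKL 72 h, and fell by 1.56 on the log2 scale (SE 0.24, adjusted p = 0.00035). The testis form Cox6b2 fell by 1.10 (SE 0.37, adjusted p = 0.0363), from 1.65 ± 0.0750 to 0.740 ± 0.217 FPKM (SD, n = 3). Without RANKL 72 h replicate 3 the call of Cox6b2 was lost (log2 fold change -0.86). Cox6b1, Cox6a1 and Cox8a, the abundant subunits, had log2 fold changes of 0.33, 0.22 and 0.32, and none passed the adjusted limit, whereas Cox6c (0.40, adjusted p = 0.0407) and Cox7b (0.41, adjusted p = 0.0321) passed it but not the fold limit. Both of these were named after their values were seen. Cox6a2 lies on chromosome 7 from 128205435 to 128206387 on the minus strand (GENCODE M21, GRCm38) and overlaps the coding gene Itgad on the other strand.

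In LPS 4 h all 67 members lay below control, and most by less than the median gene. The share of all genes called lower was 41%, with 8.75% called higher. Of the members, 11 (16.4%) were called lower and 0 higher, and none had an unadjusted p under 0.05 in the upward direction. The members ranged from -1.18 (Atp5s) to -0.18 (Cox7c), with a median of -0.39 beside -0.52 for all genes. By adjusted p alone 40 members were lower, beside 50.1% of all genes. With samples centred on their median gene the direction turned: the median of all genes became 0.04 and that of the members 0.18. Then 54 of 67 members were above 0, and 1 was called lower, beside 14.3% of all genes. Among the parts, the median was -0.44 for complex I, -0.27 for complex IV and -0.38 for complex V. No complex IV gene was called, 8 of complex I were, and of the 3 Atp5 symbols called, Atp5s and Atp5sl are not subunits of the synthase. Without LPS 4 h replicate 3, 7 members were called lower, beside 38.9% of all genes.

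The 2 largest falls in LPS 4 h were those of Atp5s and Atp5sl, whose proteins are related to each other and, for Atp5sl, linked to the assembly of the complex I membrane arm. Atp5sl had 5.45, 6.20 and 5.70 FPKM in control and 2.30, 2.49 and 2.81 FPKM in LPS 4 h, and fell by 1.16 (SE 0.15, adjusted p = 2.68e-05), with -0.60 and no call under centring. Atp5s fell from 1.54, 1.52 and 1.37 FPKM to 0.404, 0.842 and 0.603 FPKM, on 22 to 117 fragments per sample over all groups. Ndufv3 had 16.1, 15.2 and 12.9 FPKM in LPS 4 h, below every control sample, and fell by 0.81 (SE 0.15, adjusted p = 0.000505). Under centring on the median gene its log2 fold change was -0.25 and no longer called. Of the 7 core subunits of complex I, Ndufs1, Ndufs7, Ndufs8 and Ndufv2 were called lower, with a list median of -0.63. Under centring on the median gene none of these 4 was called, with log2 fold changes of -0.10, -0.06, -0.08 and -0.16. The calls of Ndufs1, Ndufs7 and Ndufs8 were also lost when single libraries were left out (-0.54 to -0.60). The single synthase subunit called was Atp5g1, which fell by 0.64 (adjusted p = 0.00242), from 66.6, 74.4 and 69.1 FPKM to 46.5, 48.4 and 39.7 FPKM. Its call was lost without LPS 4 h replicate 3 (-0.56) and under centring (-0.08).

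**Figure D2:**
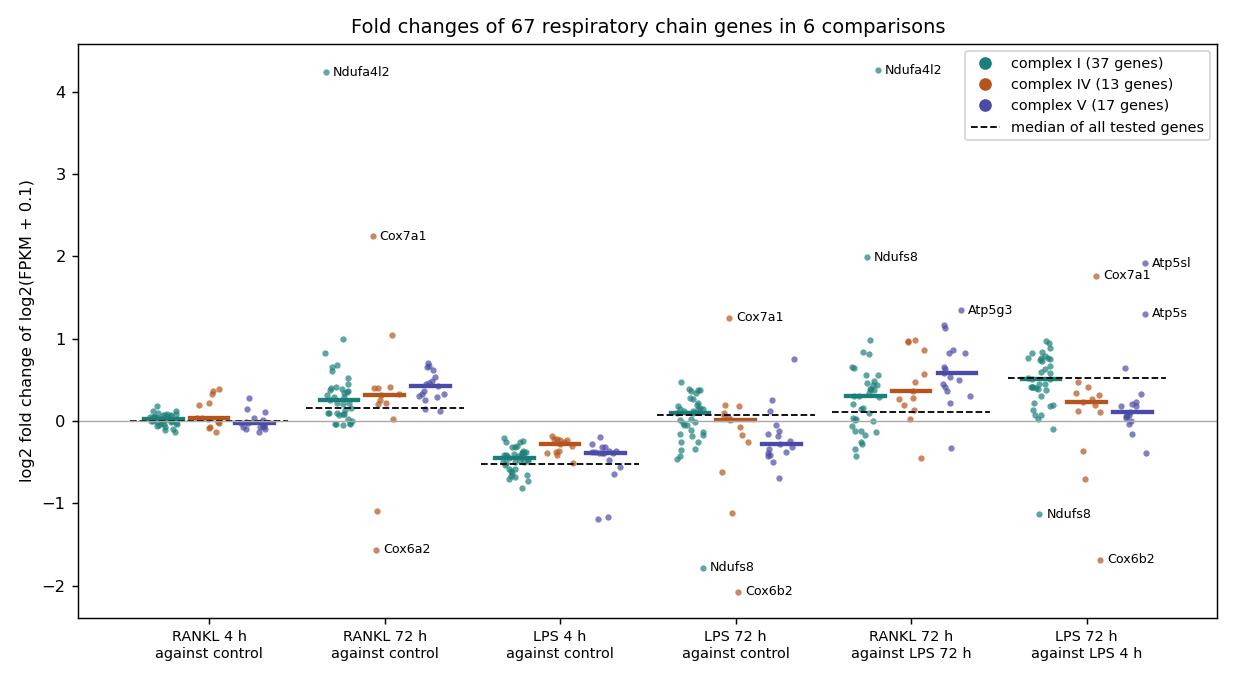
Log2 fold changes (vertical axis) of the 67 genes in the 6 comparisons (horizontal axis), with a point per gene coloured by complex, a thick bar at each complex's median and a dashed line at the median of all tested genes. Complex V sat above the dashed line in RANKL 72 h against control (median 0.42 beside 0.16) and below it in LPS 72 h against control (median -0.28 beside 0.08), and Ndufs8 lay far below the rest of complex I in LPS 72 h.

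In LPS 72 h most Atp5 symbols lay below control, while 21 genes of complex I lay above and 16 below, and 7 of complex IV above and 6 below. The difference between the complexes was not tested. Complex I had a median log2 fold change of 0.10 against control, complex IV 0.02 and complex V -0.28, beside 0.08 for all genes. Of all genes, 14.9% were called higher and 16.1% lower, and of the members 2 (2.99%) were called higher and 5 (7.46%) lower, both under the background. By adjusted p alone, 4 members were higher and 10 lower, where 18.2% and 17.6% of all genes were. Of the 17 Atp5 symbols 14 lay below 0, and this count was the same with samples centred on their median gene (median -0.37). The 3 c ring genes all passed the adjusted limit, at -0.69 (Atp5g3), -0.50 (Atp5g2) and -0.42 (Atp5g1), though only Atp5g3 passed the fold limit. The members called lower were Ndufs8, Cox6b2, Cox6a2, Cox5b and Atp5g3, and those called higher were Cox7a1 and Atp5sl. Without LPS 72 h replicate 1, 3 were called lower, and without replicate 3, 6 were. In both of these fits the share of members called lower was again under that of all genes.

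Ndufs8 was the 1 complex I gene called lower in LPS 72 h. This core subunit, which binds iron-sulfur clusters at the foot of the hydrophilic arm, lies on chromosome 19 from 3908863 to 3912774 on the minus strand, with no overlapping coding gene in GENCODE. It had 51.4, 64.3 and 65.6 FPKM in control, 38.2, 41.3 and 35.5 FPKM in LPS 4 h and 14.3, 16.0 and 22.9 FPKM in LPS 72 h. Each LPS 72 h sample was below each LPS 4 h sample, and each of those below control. The log2 fold change in LPS 72 h was -1.78 ± 0.18 (adjusted p = 1.63e-05), whereas the other 6 core subunits lay between -0.34 (Ndufv2) and 0.47 (Ndufs3). Ndufs3 had 70.9, 62.8 and 48.2 FPKM in control and 89.9, 84.5 and 75.3 FPKM in LPS 72 h, above control in every sample, and passed the adjusted limit (adjusted p = 0.023) but not the fold limit. In RANKL 72 h Ndufs8 had 59.4, 62.0 and 90.0 FPKM, 3.97-fold above LPS 72 h (adjusted p = 1.81e-06).

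Atp5g3 had 102, 119 and 159 FPKM in LPS 72 h, below every control sample, with a log2 fold change of -0.69 ± 0.17 (adjusted p = 0.0071), and without LPS 72 h replicate 1 it was -0.55, under the fold limit. Cox5b, which binds zinc on the matrix side of complex IV, had 242, 225 and 205 FPKM in control and 132, 145 and 162 FPKM in LPS 72 h, and fell by 0.62 (SE 0.15, adjusted p = 0.00641). Its call was lost without control replicate 1 (-0.56), without LPS 72 h replicate 1 (-0.54) and with FPKM rescaled to equal sums (-0.59). Cox4i1, the main form of subunit 4 and outside the symbol rule, had a log2 fold change of -0.42 (adjusted p = 0.0326), which did not pass the fold limit, and Atpif1 fell by 0.66 (adjusted p = 0.0058), a call lost without LPS 72 h replicate 1 (-0.52) or 2 (-0.58). Cox6a2 fell by 1.12 (adjusted p = 0.00259) and Cox6b2 by 2.07 (adjusted p = 0.00079), the latter on 2 to 34 fragments per sample over all groups. Cox7a1 rose by 1.25 (SE 0.27, adjusted p = 0.00316), to 3.85, 3.05 and 4.93 FPKM. Atp5sl rose by 0.75 (adjusted p = 0.00194), to 11.8, 10.1 and 7.91 FPKM.

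RANKL 72 h and LPS 72 h were matched for time, and here 20 members (29.9%) were called higher under RANKL and 0 lower, beside 25.1% of all genes called higher and 13.8% lower. The 20 include Ndufa4l2, and among the 61 members with a mean of at least 10 FPKM 17 were called higher. By limma voom also 0 were called lower. In the main limma fit 3 members had an unadjusted p under 0.05 in that direction. An adjusted p under 0.05 was reached by 2 of the members there and by 1 in limma voom, beside 17.9% of all genes in the main fit. By adjusted p alone 35 members (52.2%) were higher, beside 27.6% of all genes. The median log2 difference was 0.31 for complex I, 0.37 for complex IV and 0.59 for complex V, beside 0.11 for all genes. Of the 17 Atp5 symbols 9 were called, and 14 passed the adjusted limit: all 3 c ring genes, all 7 stalk and membrane genes and 4 of the 5 F1 head genes. With samples centred on their median gene 14 members were called higher and 0 lower, beside 20.7% and 18.3% of all genes. The complex V median was then 0.45. Without RANKL 72 h replicate 3, 16 were called higher, beside 26.1% of all genes, and without LPS 72 h replicate 3, 24 were, beside 26.0%.

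The largest differences of the synthase were those of Atp5g3 (log2 difference 1.34 ± 0.17, adjusted p = 3.3e-05), Atp5g2 (1.17 ± 0.13, adjusted p = 1.26e-05) and Atp5a1 (1.13 ± 0.15, adjusted p = 4.76e-05). In each, every RANKL 72 h sample was above every LPS 72 h sample. Atpif1 was 1.26 higher (adjusted p = 3e-05) and Cox4i1 0.80 higher (adjusted p = 0.000425). Atp5b was 1.58-fold higher (adjusted p = 0.00274), and without RANKL 72 h replicate 3 its log2 difference was 0.47 and under the fold limit, as it was under centring (0.52). Among complex I genes, Ndufs8 (1.99), Ndufs1 (0.98) and Ndufv3 (0.84) had the largest differences called apart from Ndufa4l2, and Ndufs3 (-0.25) and Ndufs6 (-0.42, adjusted p = 0.0419) pointed the other way. The common complex IV subunits Cox6a1 (0.03, adjusted p = 0.888), Cox8a (0.14) and Cox7a2 (0.19) were not called. An interval of 2 SE on either side of the Cox6a1 difference runs from -0.26 to 0.32.

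**Figure D3:**
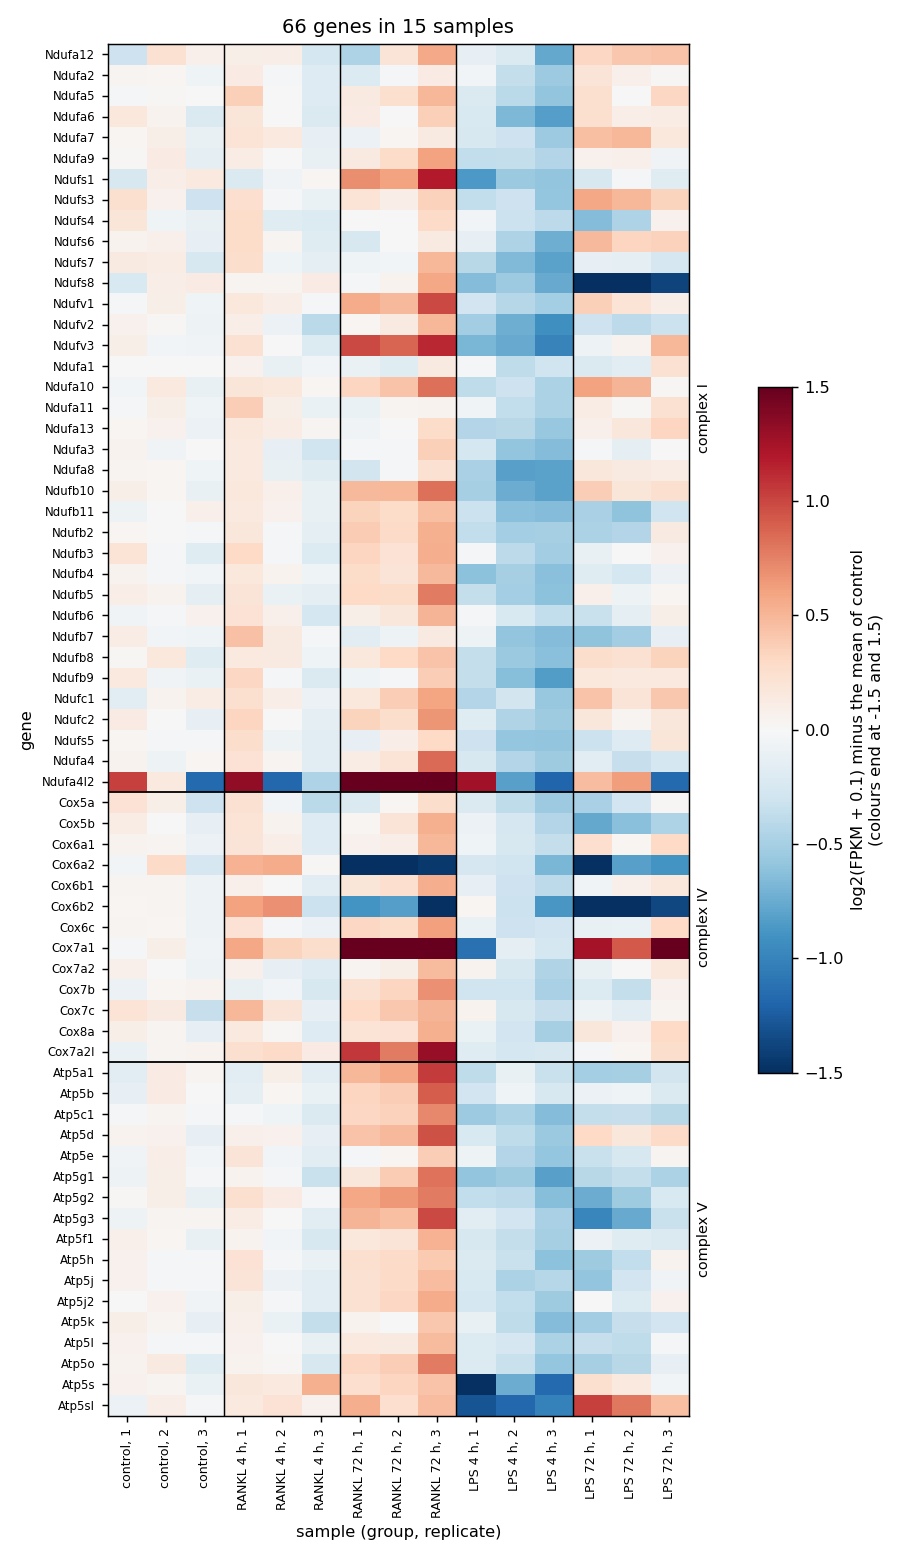
Log2(FPKM + 0.1) of the members, leaving out 1 (rows, ordered by complex) in the 15 samples (columns), as the difference from the mean of the control samples, red for higher and blue for lower with colours ending at -1.5 and 1.5. RANKL 72 h replicate 3 has the deepest red of its group, LPS 4 h is mostly blue, and in LPS 72 h the rows of complex V are mostly blue while those of complex I are mixed, with Ndufs8 dark blue.

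From 4 h to 72 h of LPS, 45% of all genes were called higher and 14.3% lower, and of the members 20 (29.9%) were called higher and 3 (4.48%) lower. Complex I rose with the median gene (0.51 beside 0.52), with 16 of its 37 genes called higher, whereas complex IV (0.23) and complex V (0.10) lay below it. Only 3 Atp5 symbols were called higher, and of these Atp5d alone is a subunit of the synthase. With samples centred on their median gene the balance turned for members and all genes alike. Then 3 members were called higher and 11 lower, beside 19.5% and 28.6% of all genes. The medians were -0.14 for complex I and -0.54 for complex V, beside -0.13 for all genes. The 3 genes called lower without centring were Ndufs8 (-1.13 ± 0.18, adjusted p = 9.11e-05), Cox6b2 (-1.68) and Cox6a2 (-0.71, a call lost without LPS 72 h replicate 1, at -0.44, and with a pseudocount of 1, at -0.53), and the 3 largest rises were those of Atp5sl (1.92 ± 0.15, adjusted p = 2.84e-07), Cox7a1 (1.76) and Atp5s (1.30). Under that centring Ndufv1, called higher at 0.63, stood at -0.018 and Atp5d, called higher at 0.64, at -0.0064. Both calls were also lost without LPS 4 h replicate 3 (0.58 and 0.56), and that of Ndufv1 without LPS 72 h replicate 1 (0.56).

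**Figure D4:**
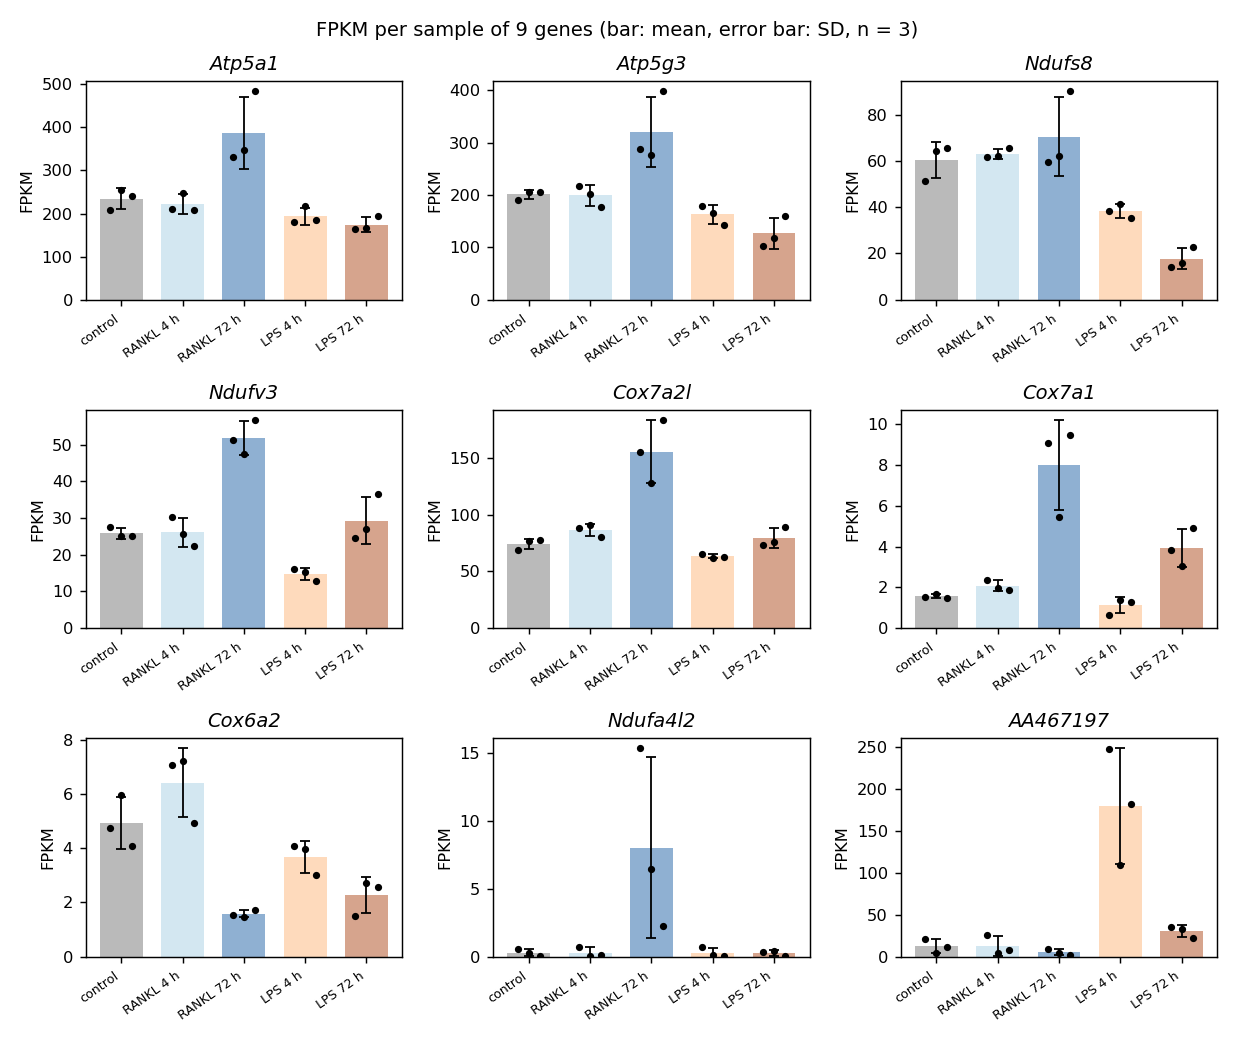
FPKM (vertical axes, each from 0) of 9 genes in the 5 groups, with points for samples, bars for means and error bars for SD (n = 3). Ndufs8 falls to 17.7 in LPS 72 h, Cox7a2l and Ndufv3 reach 156 and 51.9 in RANKL 72 h, Ndufa4l2 is above 1 only in RANKL 72 h, and AA467197 reaches 180 in LPS 4 h.

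The NDUFA4 family showed the widest swings of any paralogs. Ndufa4l2, known as a hypoxia-induced form, had 0.571, 0.266 and 0.0472 FPKM in control and 15.3, 6.49 and 2.29 FPKM in RANKL 72 h, and its mean outside RANKL 72 h was 0.286 FPKM. Since it is a member only through RANKL 72 h, that difference is not counted as a finding, and its values there followed the order of the stromal marker sums of the same libraries (1924, 857 and 409), whose part was not tested. The gene lies on chromosome 10 and overlaps Shmt2, which lies on the other strand. Ndufa4 itself had 165, 152 and 163 FPKM in control, 136, 118 and 111 FPKM in LPS 4 h and 142, 126 and 134 FPKM in LPS 72 h. Its log2 fold change was -0.40 in LPS 4 h (adjusted p = 0.0553) and 0.39 in RANKL 72 h (adjusted p = 0.0967), and it was 0.65 higher in RANKL 72 h than in LPS 72 h (adjusted p = 0.00682), a call lost without RANKL 72 h replicate 3 (0.42) and under centring (0.51). The third relative, AA467197 (the mouse form of human C15orf48), is not a member by symbol and is annotated on chromosome 2 from 122636986 to 122641191, in a span that also holds Mir147. It had 21.2, 4.56 and 11.01 FPKM in control, 247, 110 and 182 FPKM in LPS 4 h and 35.6, 33.5 and 22.7 FPKM in LPS 72 h. It rose by 4.04 ± 0.68 in LPS 4 h (adjusted p = 0.000196) and was 1.54 above control in LPS 72 h, which was called although its adjusted p was 0.0909. That call was lost when any of 4 libraries was left out in turn, with log2 fold changes of 0.97 to 1.60. In RANKL 72 h it stood at -1.24 and was not called (adjusted p = 0.18), and a fit with a replicate block called it lower. As a share of the summed FPKM of the 3 genes, Ndufa4 made up 93.0% ± 4.31 in control and 41.7% ± 8.91 in LPS 4 h, where AA467197 made up 58.2% ± 8.87 (SD, n = 3).

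Other paralogs kept their order in every group. Atp5g3 made up 50.2% ± 1.70 of the c subunit FPKM in control, 51.1% ± 2.58 in RANKL 72 h and 46.3% ± 3.04 in LPS 72 h (SD, n = 3), with Atp5g2 next and Atp5g1 last in all samples. The 3 genes encode the same mature protein, and reads from their processed pseudogenes or shared stretches could be split in counting. Cox7a1 rose from 1.36% ± 0.0924 of the COX7A pair in control to 5.72% ± 1.44 in RANKL 72 h, so Cox7a2 made up at least 92.8% in every sample. Cox6a2 was 1.76% ± 0.281 of the COX6A pair in control and 0.493% ± 0.0472 in RANKL 72 h. Cox4i2, a lung and hypoxia form, had 0.233, 0.256 and 0.0681 FPKM in control and 1.30, 1.15 and 0.855 FPKM in RANKL 72 h, with a log2 fold change of 2.13 ± 0.51 (adjusted p = 0.00709), and it made up at most 0.281% of the COX4 pair. These values rested on 3 to 12 fragments in control and 38 to 56 in RANKL 72 h. The control value of 0.0681 FPKM was below the pseudocount of 0.1. Cox4i2 in RANKL 72 h was also highest where the stromal marker sum was highest, and that part was not tested. Ndufab1, the mitochondrial acyl carrier protein that sits in complex I, had a log2 fold change of -0.62 in LPS 4 h (adjusted p = 0.00237), and of -0.05 with samples centred on their median gene. Its call was also lost without control replicate 1 or 2 or LPS 4 h replicate 2 (-0.54 to -0.59).

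**Figure D5:**
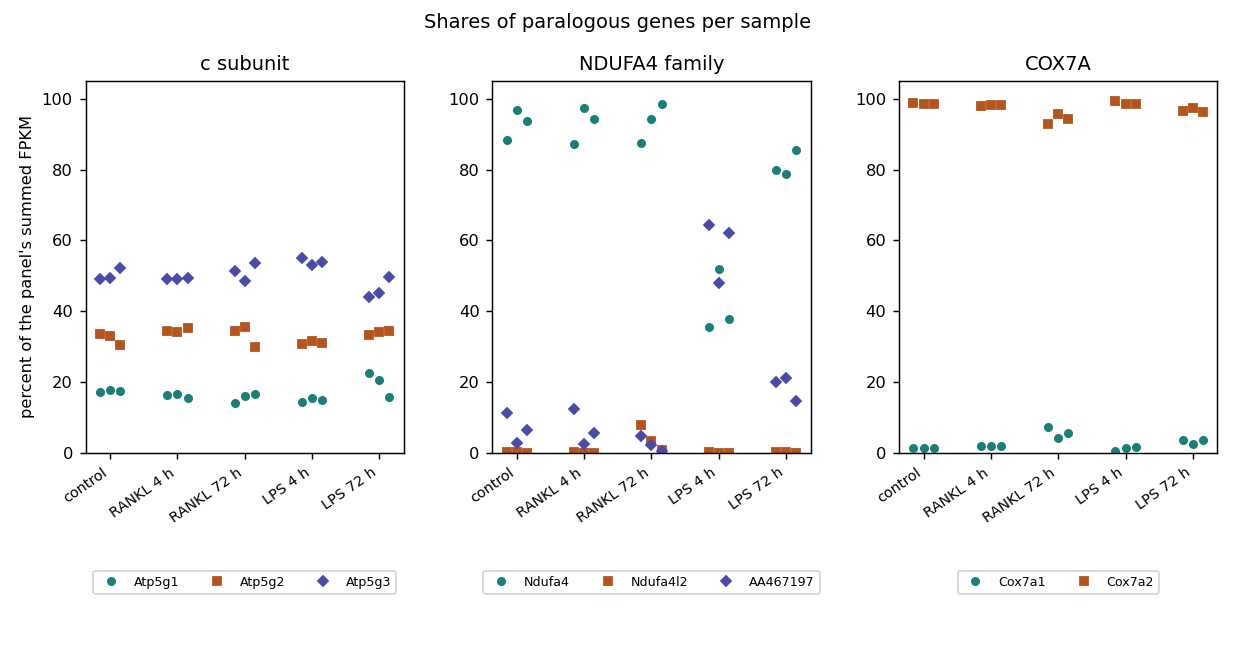
Share of each paralog in the summed FPKM of its family (vertical axis, percent) in the 5 groups, with a point per sample. Shares of the 3 c subunit genes stay in order, AA467197 takes 48.1% to 64.4% of the NDUFA4 family in LPS 4 h, and Cox7a1 takes 4.32% to 7.19% of the COX7A pair in RANKL 72 h.

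Other genes of the pathway were read from lists of complex II, assembly factors and carriers. In RANKL 72 h against control, where 20.2% of all genes were called higher and 9.04% lower, 1 of 8 complex II genes was called higher (Sdha, the flavin subunit, 0.65, adjusted p = 0.00901) and 1 of 3 carriers (Slc25a4, an ADP/ATP carrier, from 80.5 to 215 FPKM, log2 fold change 1.42). Of 14 complex I assembly factors 1 was called higher (Nubpl) and 1 lower (Ndufaf3), and of 22 complex IV assembly factors 1 higher (Cox15) and 2 lower. The complex IV list had a median of -0.09 beside 0.16 for all genes. Under centring 1 of the 14 was called higher and 3 lower, and 0 of the 22 higher and 5 lower. The shares of all genes were then 12.7% and 14.2%. The calls of Sdha, Ndufaf3 and Cox15 were each lost without control replicate 1 (0.55, -0.54 and 0.56), and those of Sdha and Cox15 also without RANKL 72 h replicate 3 (0.47 and 0.43) and under centring (0.43 and 0.37). That of Ndufaf3 was lost too without RANKL 72 h replicate 1 (-0.59) or 2 (-0.54), with a pseudocount of 1 (-0.58) and with equal sums (-0.50), and that of Cox15 without control replicate 2 (0.57) and with a pseudocount of 1 (0.54). In LPS 4 h, 12 of 14 complex I assembly factors were called lower, with a list median of -0.83, beside 41% of all genes and their median of -0.52. With samples centred on their median gene 3 of the 14 were called lower, beside 14.3% of all genes, with a median of -0.26 beside 0.04. Tmem126b, of the membrane arm assembly complex, fell by 2.12. Of complex IV assembly factors 10 of 22 were called lower, near the share of all genes. Under centring 4 were called lower and 3 higher, beside 14.3% and 17.4% of all genes. The copper chaperone Sco1 rose by 1.59 from 3.80 to 11.7 FPKM, while its relative Sco2 fell by 1.85. In LPS 72 h against control, where 14.9% of all genes were called higher and 16.1% lower, 2 of 14 complex I assembly factors were called higher. Under centring 0 were, beside 11.8% of all genes. Atpaf2, an assembly factor of the F1 head, rose by 1.16 (from 7.48 to 17.6 FPKM), and Slc25a5, the other ADP/ATP carrier of the list, fell by 0.90. Both carriers were higher in RANKL 72 h than in LPS 72 h, by 1.58 and 1.32. Of the complex IV assembly factors 3 of 22 were called higher and 3 lower in that comparison, beside 25.1% and 13.8% of all genes. Under centring 1 was called higher and 6 lower, beside 20.7% and 18.3%.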

How the data were processed

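RNA of 15 BMDM samples in 5 groups of 3, taken from GEO's labels, was measured with mRNA-seq libraries. The authors deposited 1 table of FPKM per gene and sample, made with StringTie and Ballgown, and the submitters' processing notes name GRCm38.p4 and mm10. The aligner and the use of strand in counting are not given in the sources used here. FPKM divides by length and by mapped fragments, so a large rise of some genes lowers the others. Low values were whole multiples of a step in 14485 of 14485 genes (tolerance 0.01), which gave the fragments per sample (median 19351141), and 1 incomplete entry was left out. Here log2(FPKM + 0.1) was fitted for the 11743 genes whose mean reached 0.1 FPKM, over all 5 groups with limma 3.58.1 (R 4.3.3, empirical Bayes with trend), checked first on simulated data. Figures used Python 3.11.15 and matplotlib 3.10.9. Named genes were the 3 highest members of each complex, the 3 largest called rises and falls in each comparison, the lists of complex I core genes, paralogs and related genes outside the symbol rule, members under the level limit, and the 2 largest changes of each other list. The own values of 1 member, which stays in all counts, sums and medians, are not reported here. Members and lists were chosen with earlier results of these data known. Same-numbered samples deviated together, from the data and not the labels, in RANKL 4 h, RANKL 72 h and LPS 4 h against control (lowest correlation 0.707, 0.136 and 0.440 over 9486 genes), and not in the other 3 comparisons (lowest -0.0299, -0.229 and -0.151). Alternatives were the pseudocount (0.01 and 1), the filter, the scaling, the replicate block, the groups fitted, the call rule, leaving out each library and, chosen after seeing the data, limma voom on the recovered fragments.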

Additional observations from a re-analysis of the deposited data

Results flagged for a closer look

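The 2 times of LPS differed when tested against each other by limma. Between LPS 72 h and LPS 4 h, 20 members were higher and 3 lower, beside 45% and 14.3% of all genes. Among the genes with the largest such differences, Atp5sl (1.92), Cox7a1 (1.76) and Atp5s (1.30) were higher at 72 h on the log2 scale, and Cox6b2 (-1.68), Ndufs8 (-1.13) and Cox6a2 (-0.71) were lower. The call of Cox6a2 was lost without LPS 72 h replicate 1 (-0.44) and with a pseudocount of 1 (-0.53).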

How the results depend on the processing

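Of 3099 values of named genes under the alternatives, 2955 kept their direction and side of the limits, 70 lost a call, 26 gained one, 46 uncalled values moved and 2 reversed. The reversals were those of Ndufv1 (-0.018) and Atp5d (-0.0064) in LPS 72 h against LPS 4 h with samples centred on their median gene. That centring left 5 members higher in RANKL 72 h against control, beside 12.7% of all genes. It left 1 lower in LPS 4 h against control, beside 14.3%. In LPS 72 h against LPS 4 h it left 3 higher and 11 lower, beside 19.5% and 28.6%. The next counts use an adjusted p under 0.05 and no fold limit. RANKL 72 h against control then gave 26 members higher and 2 lower, beside 20.8% and 9.85% of all genes. LPS 4 h against control gave 40 lower, beside 50.1%. LPS 72 h against control gave 4 higher and 10 lower, beside 18.2% and 17.6%. RANKL 72 h against LPS 72 h gave 35 higher and 2 lower, beside 27.6% and 17.9%. LPS 72 h against LPS 4 h gave 36 (53.7%) higher and 4 lower, beside 50.8% and 15.9%. The share higher there was near that of all genes. Leaving out 1 library at a time gave 6 to 15 higher and 1 to 2 lower in RANKL 72 h, 7 to 15 lower in LPS 4 h, 2 to 3 higher and 3 to 6 lower in LPS 72 h against control, 16 to 24 higher and 0 to 1 lower in RANKL 72 h against LPS 72 h, and 15 to 21 higher and 2 to 3 lower in LPS 72 h against LPS 4 h. Under a replicate block the counts stayed at 12 higher and 2 lower for RANKL 72 h and at 11 lower for LPS 4 h against control, and of the named genes in the 3 comparisons whose numbers pair only AA467197 in RANKL 72 h changed its call. Members under 10 FPKM rested on as few as 1 fragment, so their fold changes are the least precise.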
